A study of Rattus norvegicus with 6 samples.

Results

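Scavenger and mannose receptors are the surface proteins with which macrophages and microglia bind and internalise modified lipoproteins, glycoproteins, haemoglobin complexes, bacteria and cell debris. The group followed here held 10 genes chosen by name, Mrc1, Msr1, Marco, Cd163, Cd36, Stab1, Scarb1, Scarb2, Olr1 and Lrp1. Of these, 9 had a row among the 23139 genes of the count tables, and 7 had enough reads to be tested among 11977 genes. Cd36 was not analysed here. Marco and Cd163 did not pass the filter on low counts, and their reads are given below.

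Primary microglia from the cortices of Wistar rats at postnatal day 1 were purified from mixed glial cultures with CD11b/c microbeads and stimulated 1 day later with lipopolysaccharide (LPS), a bacterial outer membrane component that activates microglia. All 6 libraries received 100 ng/mL LPS. The 3 LPS libraries were given DMSO, the solvent of the drug, and the 3 LPS/siponimod libraries 50 µM siponimod, a sphingosine 1-phosphate receptor modulator. No unstimulated library and none with siponimod alone was analysed here, so that every value compares LPS/siponimod with LPS. The cells were neonatal and kept in serum. Cultures were fixed or lysed 1 and 3 days after stimulation, and which of these times holds for the sequenced libraries is not clear from the sources used here.

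Receptors of this kind are grouped by structure rather than by ancestry. Class A members (Msr1, Marco) carry collagen-like stalks, class B members (Scarb1, Scarb2, Cd36) span the membrane at both ends, Olr1 is a C-type lectin that takes up oxidised low density lipoprotein, Stab1 is a large endocytic receptor with fasciclin domains, Cd163 clears haptoglobin-haemoglobin complexes, Mrc1 binds mannosylated ligands and Lrp1 is a giant relative of the low density lipoprotein (LDL) receptor. In the brain, Mrc1, Cd163 and Stab1 are best known from macrophages at the borders and vessels, whereas parenchymal microglia carry little of them at rest.

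Stab1 and Mrc1 fell and Olr1 rose with LPS/siponimod, and the other 4 genes tested did not pass the test. Stab1 was 9.30-fold and Mrc1 5.33-fold lower, and Olr1 was 15.5-fold higher. A gene was called where edgeR's quasi-likelihood test gave a Benjamini-Hochberg adjusted p of at most 0.05 over all genes tested and the means differed by 1.5-fold or more. By this rule 25.3% of all genes tested were called, 11.7% of them lower and 13.6% higher, beside 3 of the 7 receptors, 2 lower and 1 higher. The median log2 fold change (FC) of the 7 receptors was -0.41 and that of all genes -0.02. The CPM of the groups did not overlap for 4 of the 7 receptors, 3 lower and 1 higher, as was so for 49.3% of all genes. Permuting the labels of 3 and 3 libraries gives an exact p of 0.1 at best for 1 gene, so that each adjusted p also rests on the spread edgeR estimates across genes.

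For the 3 genes that passed, the 250 bases before the RefSeq start site (assembly GRCr8, another than the one used for mapping) are shown with matches to short letter motifs in capitals. Of the 10 receptors, 8 had such a window. Both strands were searched for 9 motifs. The core of the Maf element was written TGCTGA, the AP-1 site of Fos and Jun factors TGACTCA, and the Sp1 site of many promoters without a TATA box GGGCGG. The remaining motifs, none of which was found in the 3 windows, were the cyclic AMP response element (TGACGTCA, present in 1.59% of all windows), the site of C/EBP and ATF dimers (TGATGCAA, 0.693%), the site of the myeloid factor PU.1 (GAGGAAGT, 2.04%), the antioxidant response element (TGACNNNGC, 10.1%), the TATA box itself (TATAAA, 12.9%) and the PPAR element (0.0508%). No match overlapped another in these windows.

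Stab1, chr16:6367360-6367609 (minus strand): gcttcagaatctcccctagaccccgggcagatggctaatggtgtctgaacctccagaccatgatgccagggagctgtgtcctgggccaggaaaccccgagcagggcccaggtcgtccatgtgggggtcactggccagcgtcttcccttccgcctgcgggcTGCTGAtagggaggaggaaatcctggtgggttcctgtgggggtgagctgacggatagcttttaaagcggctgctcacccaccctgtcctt
Mrc1, chr17:82157475-82157724 (plus strand): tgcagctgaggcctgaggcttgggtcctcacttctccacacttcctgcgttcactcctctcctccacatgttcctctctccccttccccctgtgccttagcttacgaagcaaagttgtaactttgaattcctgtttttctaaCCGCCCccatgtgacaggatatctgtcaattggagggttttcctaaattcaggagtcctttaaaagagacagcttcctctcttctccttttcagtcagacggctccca
Olr1, chr4:164634548-164634797 (minus strand): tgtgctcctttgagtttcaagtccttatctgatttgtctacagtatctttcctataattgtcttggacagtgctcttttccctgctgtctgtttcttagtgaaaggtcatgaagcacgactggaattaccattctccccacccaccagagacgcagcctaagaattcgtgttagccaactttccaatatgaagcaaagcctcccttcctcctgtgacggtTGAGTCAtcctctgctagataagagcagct

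The Stab1 window held 1 Maf letter match, whose outermost base lay 90 bases before the start, and 15.1% of 33469 RefSeq windows of this length hold 1 or more. In the Mrc1 window the Sp1 letters were read on the opposite strand 108 bases before the start, as in 30.5% of windows. The AP-1 letters in the Olr1 window began 30 bases before the start, on the opposite strand, and are present in 4.05% of windows. No motif was shared by the 3 windows, and a match is a run of letters and not a site shown to be bound.

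Depth ranged from 38080379 to 46643859 total counts per library. Among the LPS libraries, replicate 3 stood apart from the others. Normalised counts are given as CPM, counts scaled to the effective library size but not to transcript length. The most abundant gene of a list is named below by CPM alone. Over tested genes, the log2 CPM of LPS replicate 3 correlated at 0.935 with replicate 1 and at 0.945 with replicate 2. The correlation between replicates 1 and 2 was 0.983. LPS replicate 3 also held reads of other neural cells. The oligodendrocyte lineage factor Olig1 had 1, 5 and 515 counts in LPS replicates 1, 2 and 3 and 2, 3 and 17 in LPS/siponimod replicates 1, 2 and 3. Map2, a neuronal gene, had 162 counts in LPS replicate 3 and 115 in LPS/siponimod replicate 3, and at most 3 in any other library. Msr1, Olr1 and Lrp1 are therefore also given without LPS replicate 3.

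The microglial identity of the cultures was checked with 11 marker genes, all of which were counted in every library. Their summed level was 7721, 6515 and 4404 CPM in LPS replicates 1, 2 and 3, and 2894, 4083 and 2356 CPM in LPS/siponimod replicates 1, 2 and 3, with Csf1r, the receptor of colony stimulating factor 1, as the most abundant by its mean over the libraries. The marker list thus lay lower with LPS/siponimod, and 3 of the 11 genes, Aif1, Cx3cr1 and Itgam, were called lower. These calls were lost in 3 to 4 of the 6 fits that each left out 1 library (edgeR quasi-likelihood adjusted p up to 0.147, for Cx3cr1 without LPS replicate 2). With the replicate number as a block, P2ry12 (log2 FC -3.36, adjusted p = 0.0226), C1qa (-1.95, adjusted p = 0.014) and Csf1r (-1.33, adjusted p = 0.0375) were called lower too. The median log2 FC of the list was -0.87. For bulk RNA, fewer cells of a type and less RNA per cell cannot be told apart.

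Markers of other cells were counted in the same way. Monocyte and neutrophil markers summed to 256, 193 and 251 CPM under LPS and 31.8, 39.3 and 30.2 CPM under LPS/siponimod, with Plac8 as the most abundant by its mean, and the defining genes Ccr2 and Mpo had no count. Endothelial markers summed to 168, 215 and 93.6 CPM and to 39.7, 84.4 and 28.4 CPM. Both sums lay lower with LPS/siponimod, as did Stab1 and Mrc1. The monocyte and neutrophil sum was nearly all Plac8, at a mean of 230 of 233 CPM under LPS and 33.3 of 33.8 CPM under LPS/siponimod. Of the 5 endothelial markers tested, 4 had a negative log2 FC. Tek went the other way without being called (log2 FC 0.93, edgeR quasi-likelihood adjusted p = 0.223). Astrocyte markers (19.4 to 57.1 CPM), oligodendrocyte lineage markers (5.34 to 36.0 CPM), neuronal markers (1.04 to 16.8 CPM) and fibroblast and mural cell markers (3.39 to 11.7 CPM) overlapped between conditions as sums. Single genes of these lists did not. The neuronal gene Snap25 had 0, 1 and 1 counts under LPS and 94, 153 and 81 under LPS/siponimod (edgeR quasi-likelihood adjusted p = 0.00539), and the matrix proteoglycan gene Dcn 3, 0 and 4 against 456, 49 and 178 (adjusted p = 0.0155). Mbp, a myelin gene, was called higher with a log2 FC of 1.74 (adjusted p = 0.0172). In the other direction, the collagen gene Col1a1 lay lower in every LPS/siponimod library without being called (log2 FC -0.89, adjusted p = 0.0526), and the astrocyte gene Gfap had 88 counts in LPS replicate 3 and at most 2 in any other library. Snap25 kept its call in all 6 fits with 1 library left out, and Dcn and Mbp in 3 each. The part of these cells in the results that follow was not tested.

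**Figure D1:**
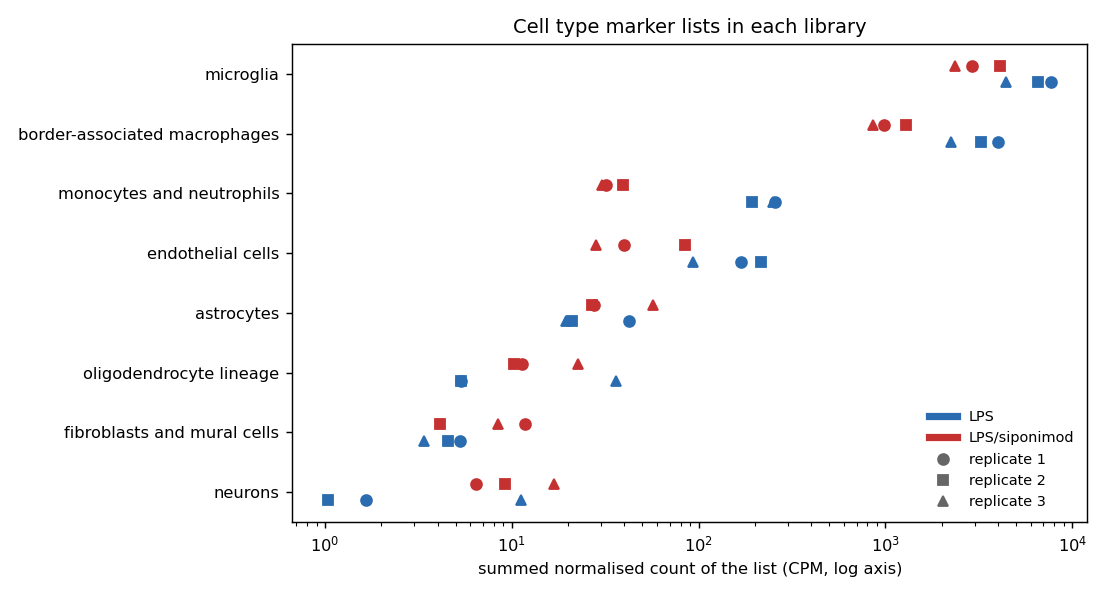
Summed normalised counts (CPM, log axis) of 8 lists of cell type markers in the 3 LPS libraries (blue) and the 3 LPS/siponimod libraries (red), with the replicate number as the symbol. Microglial markers summed to between 2356 and 7721 CPM in every library, and oligodendrocyte lineage markers reached 36.0 CPM in LPS replicate 3.

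Stab1 encodes stabilin-1, an endocytic receptor that takes up acetylated LDL and extracellular matrix fragments. Its counts were 25748, 37480 and 34748 in LPS replicates 1, 2 and 3 and 1480, 7154 and 3594 in LPS/siponimod replicates 1, 2 and 3. The groups did not overlap, and the lowest LPS library still stood 4.34-fold above the highest LPS/siponimod library, while 24.0% of all genes tested had LPS/siponimod libraries wholly below the LPS libraries. Mean CPM fell from 867 ± 151 under LPS to 93.2 ± 64.4 under LPS/siponimod (SD, n = 3 each). On the log2 scale this was -3.22 with a standard error of 0.59 (edgeR quasi-likelihood adjusted p = 0.0143). Only 72 of the 11977 genes (0.601%) had a log2 FC this low or lower. Spread was unequal between conditions, with a coefficient of variation of 17.4% under LPS and 69.1% under LPS/siponimod. The call was lost without LPS replicate 2 (log2 FC -3.11, adjusted p = 0.0602) and without LPS/siponimod replicate 3 (-3.17, adjusted p = 0.06). Without LPS/siponimod replicate 2, the highest of its group, the log2 FC was -3.87 (adjusted p = 0.0114).

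Mrc1, the macrophage mannose receptor, is a C-type lectin that internalises mannosylated glycoproteins and microbes. It had 13693, 10752 and 12114 counts in LPS replicates 1, 2 and 3 against 2373, 3618 and 2083 in LPS/siponimod replicates 1, 2 and 3. Every LPS library lay above every LPS/siponimod library, by at least 3.44-fold in CPM. Mean CPM was 325 ± 45.2 under LPS and 60.9 ± 17.4 under LPS/siponimod (SD, n = 3 each). The fitted log2 FC was -2.41 with a standard error of 0.24 (edgeR quasi-likelihood adjusted p = 0.0054). Within pairs of libraries with the same number the differences of log2 CPM were -2.85, -1.78 and -2.68. Leaving out any 1 of the 6 libraries did not end its call, the adjusted p being at most 0.0342, and 1.75% of all genes had a log2 FC as low.

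Mrc1 and Stab1 also count among markers of border-associated macrophages. Cd163, a defining marker of these cells, had 2, 2 and 1 counts in LPS replicates 1, 2 and 3 and 0, 1 and 0 in LPS/siponimod replicates 1, 2 and 3, which lies at or under the floor of 3 counts (at most 0.0809 CPM) that was used here as the limit of detection. No fold change is given for it. The 4 other markers of these cells with reads, Pf4, F13a1, Siglec1 and Folr2, summed to 2929, 2013 and 984 CPM under LPS and 904, 1041 and 718 CPM under LPS/siponimod, with Siglec1, a sialic acid-binding lectin, as the most abundant by its mean over the libraries. In LPS/siponimod replicate 3 the highest CPM was that of Pf4 (453, against 251 for Siglec1), without correction for transcript length. F13a1, which was too low to be tested, went the other way, with 3, 1 and 2 counts under LPS and 53, 5 and 38 under LPS/siponimod. None of the 3 of them that were tested was called by edgeR's quasi-likelihood test, with log2 FC of -1.64 for Siglec1 (adjusted p = 0.0792), -2.03 for Folr2 (0.0541) and 0.38 for Pf4 (0.48). With the replicate block Siglec1 (-1.57, adjusted p = 0.0124) and Folr2 (-2.13, adjusted p = 0.00641) were called lower. Stab1 is known from endothelium too, where Cdh5, the most abundant of the endothelial markers by its mean over the libraries, had 4357, 3740 and 2304 counts under LPS and 1496, 2571 and 724 under LPS/siponimod, and Kdr had no count in any library. Cdh5 was called under the replicate block (log2 FC -1.48, edgeR quasi-likelihood adjusted p = 0.0142) and not without it (-1.36, adjusted p = 0.0684), and Flt1 was called lower in both (-2.06, adjusted p = 0.00913, without the block). The part of these cells in the fall of Mrc1 and Stab1 was not tested.

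Olr1 encodes the lectin-like receptor for oxidised LDL, LOX-1, which is best known from activated endothelium and macrophages. It had 585, 138 and 84 counts in LPS replicates 1, 2 and 3 and 4897, 2472 and 7148 in LPS/siponimod replicates 1, 2 and 3. The lowest LPS/siponimod library was 3.51-fold above the highest LPS library in CPM, and 25.3% of all genes tested were separated in this direction. Mean CPM was 7.21 ± 7.46 under LPS and 112 ± 59.6 under LPS/siponimod (SD, n = 3 each). The fitted log2 FC was 3.95 with a standard error of 0.87 (edgeR quasi-likelihood adjusted p = 0.023). Its level was uneven within both conditions, spanning 6.99-fold among LPS libraries and 3.14-fold among LPS/siponimod libraries. The differences within same-numbered pairs were 2.74, 3.93 and 6.24 on the log2 scale. Olr1 lost its call without LPS replicate 2 (log2 FC 3.63, adjusted p = 0.0925), without LPS/siponimod replicate 1 (3.98, adjusted p = 0.0794) and without LPS/siponimod replicate 3 (3.48, adjusted p = 0.0681). Without LPS replicate 1, the highest of its group, the log2 FC was 5.27 (adjusted p = 0.0261), and without LPS replicate 3 it was 3.53 (adjusted p = 0.0307).

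**Figure D2:**
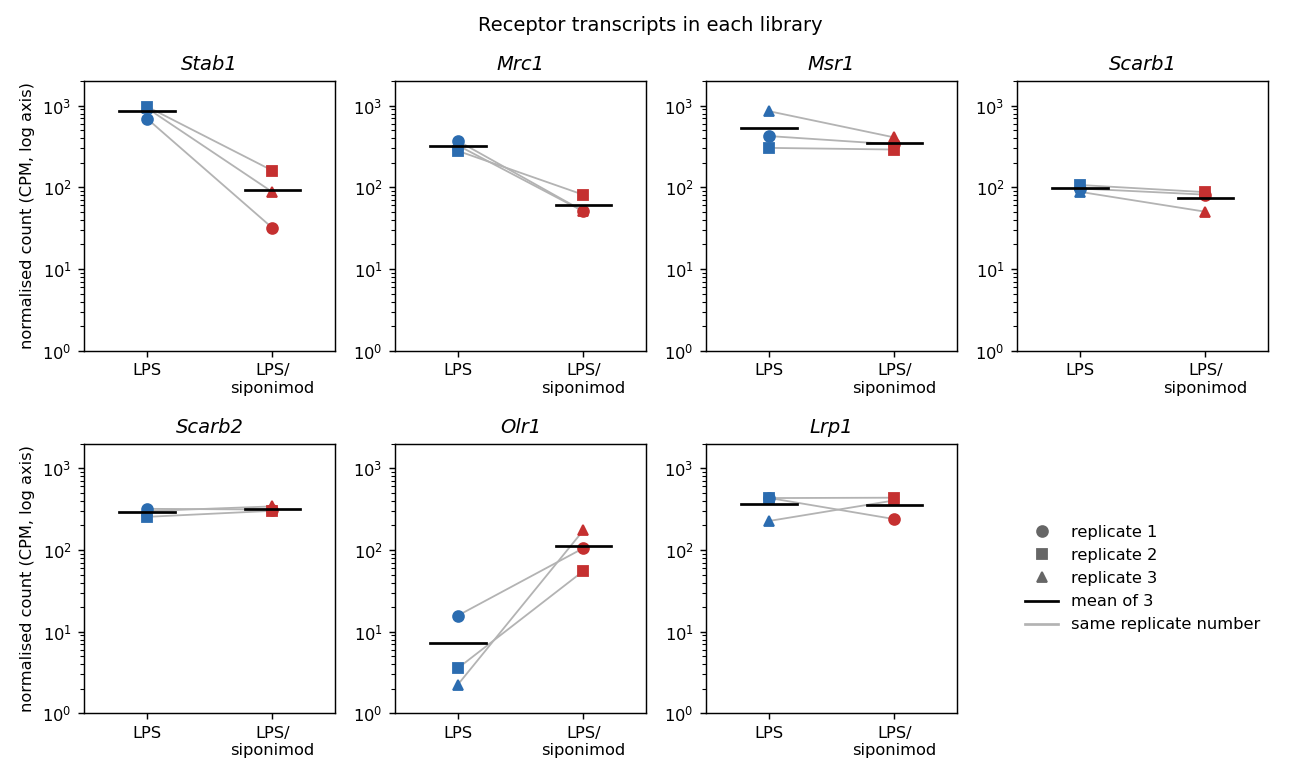
Normalised counts (CPM, log axis) of the 7 tested receptor genes in each LPS library (blue) and LPS/siponimod library (red). Symbols mark the replicate number, grey lines join libraries with the same number and black bars are means of 3. Stab1 and Mrc1 lie lower and Olr1 higher in all 3 LPS/siponimod libraries, whereas the 2 conditions overlap for Lrp1, Msr1 and Scarb2.

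Msr1, the class A scavenger receptor for acetylated LDL and bacterial products, counted 15722, 11711 and 31806 reads in LPS replicates 1, 2 and 3 and 15590, 12950 and 16749 in LPS/siponimod replicates 1, 2 and 3. LPS replicate 3 was well above the other 5 libraries, which overlapped. The log2 FC was -0.62 (standard error 0.39, 95% interval -1.57 to 0.34, edgeR quasi-likelihood adjusted p = 0.273). Without LPS replicate 3 it was -0.07 (adjusted p = 0.819), so that the size of this difference rests on 1 library. Marco, the other class A receptor of the group, is known from alveolar and marginal zone macrophages. It had 3, 1 and 3 counts under LPS and 0, 0 and 0 with the drug. None of these exceeds the floor, and a difference was not detectable at this depth.

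Neither of the 2 class B receptors that were tested was called. Scarb1, which takes up cholesteryl esters from high density lipoprotein, counted 3583, 4116 and 3275 reads with LPS and 3783, 3896 and 2064 with LPS/siponimod (97.2 ± 9.38 against 73.0 ± 19.9 CPM, SD, n = 3 each). In CPM its LPS libraries lay just above the LPS/siponimod libraries, the nearest pair being 1.01-fold apart. The log2 FC was -0.41 with a 95% interval of -0.96 to 0.13 (edgeR quasi-likelihood adjusted p = 0.204). Scarb2, known as LIMP-2, sits in the lysosomal membrane. It had 11837, 9817 and 11165 counts under LPS and 14537, 13476 and 14040 under LPS/siponimod, and the groups overlapped once scaled to depth (291 ± 33.2 against 319 ± 20.8 CPM). Its log2 FC was 0.13, with a 95% interval of -0.22 to 0.48 (edgeR quasi-likelihood adjusted p = 0.52).

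Lrp1 binds apolipoprotein E, protease-inhibitor complexes and many other ligands, and is an uptake receptor of myelin debris and amyloid in glia. Its counts were 16084, 16664 and 8429 in LPS replicates 1, 2 and 3 and 11105, 19508 and 16616 in LPS/siponimod replicates 1, 2 and 3. The lowest values belonged to LPS replicate 3 and LPS/siponimod replicate 1, and the groups overlapped throughout. Pair differences ran from -0.86 through 0.01 to 0.84 on the log2 scale. The fitted log2 FC was -0.02 (standard error 0.34, 95% interval -0.84 to 0.80, edgeR quasi-likelihood adjusted p = 0.976), and without LPS replicate 3 it was -0.26 (adjusted p = 0.494). A change of up to 1.5-fold in either direction is inside this interval.

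**Figure D3:**
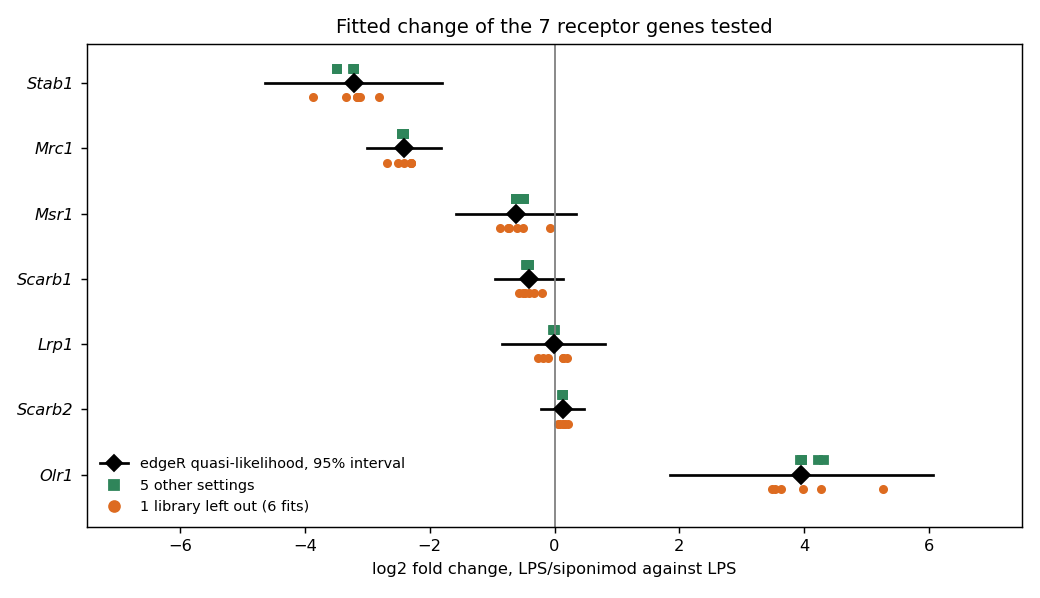
Log2 fold change of LPS/siponimod against LPS for the 7 tested receptors. Black diamonds with lines are the edgeR quasi-likelihood estimate and its 95% interval, green squares 5 other settings and orange circles the 6 fits with 1 library left out. Intervals of Stab1, Mrc1 and Olr1 lie away from 0, and those of the other 4 genes include it.

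Summed over the group, the receptor transcripts came to 2354, 2353 and 2733 CPM in LPS replicates 1, 2 and 3 and 1157, 1413 and 1518 CPM in LPS/siponimod replicates 1, 2 and 3. Without Stab1 and Mrc1, the sum of the other 5 tested genes overlapped between conditions, at 1289.9, 1102 and 1473 CPM under LPS and 1074, 1172 and 1379 CPM under LPS/siponimod. Stab1 made up 29.5%, 41.3% and 34.2% of the sum over the whole group under LPS and 2.75%, 11.3% and 5.77% under LPS/siponimod. Olr1 went from 0.67%, 0.152% and 0.0827% to 9.11%, 3.92% and 11.5%. Because longer transcripts give more reads, a share can be compared between libraries but not between genes, and as a share of a sum it also moves when another member does. Scarb2, for instance, rose from between 10.8% and 13.6% to between 21.4% and 27.0% of the sum although its CPM overlapped between conditions.

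**Figure D4:**
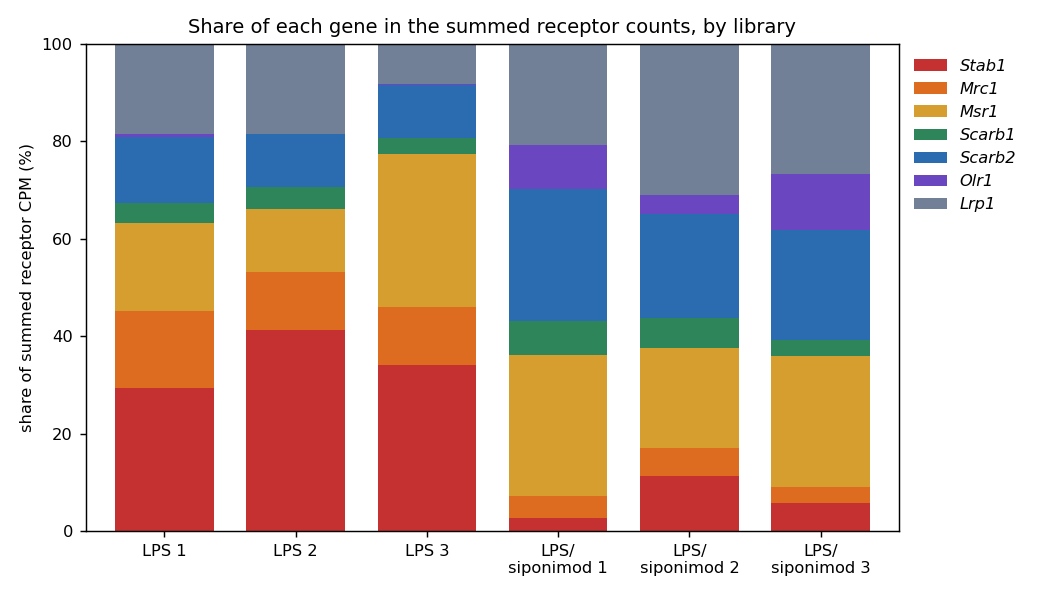
Share (%) of each of the 7 tested receptor genes in the summed receptor CPM of each library, as stacked bars. Shares depend on transcript length and are to be compared between libraries only. The Stab1 share was at least 29.5% in each LPS library and at most 11.3% in each LPS/siponimod library.

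Over the 6 libraries, the tested genes outside the group whose log2 CPM followed Mrc1 most closely were Slc25a20, the mitochondrial carnitine-acylcarnitine carrier (Pearson r = 0.998), the interferon-induced gene Oasl (0.998) and Gnptab (0.997), which builds the mannose 6-phosphate tag of lysosomal enzymes. Those nearest to Olr1 were Nqo1, a quinone reductase (r = 0.996), Neurl4 (0.995) and Nadk2 (0.994), a mitochondrial NAD kinase. Since the 6 points fall into 2 conditions, such values mostly follow the difference between conditions, and they do not reflect its size. The log2 FC of Neurl4 was 0.13 (edgeR quasi-likelihood adjusted p = 0.342) and that of Nqo1 2.25 (adjusted p = 0.0215).

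Related genes were taken from 8 lists of well-known members, as a description beside the share of 25.3% over all genes. Among 13 tested genes of other scavenger and mannose receptor classes, 1 was called, against 3 of the 7 receptors above. Clec7a, the beta-glucan receptor dectin-1, rose from 407, 223 and 232 counts under LPS to 3033, 2597 and 1929 under LPS/siponimod (log2 FC 2.89, standard error 0.30, edgeR quasi-likelihood adjusted p = 0.00568), and held in all 6 fits with a library left out. Cd68, a lysosomal class D receptor that marks phagocytic cells, overlapped between conditions (1074 ± 337 against 1076 ± 259 CPM, SD, n = 3 each, log2 FC 0.00). The median of the list was 0.00. With the replicate number as a block the collectin-type receptor Colec12 (log2 FC -1.79, adjusted p = 0.00813) and Scara3 (-2.02, adjusted p = 0.033) were also called lower, 3 genes in all.

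In the LDL receptor family, 3 of 12 tested genes were called (median log2 FC 0.19). Lrp12 rose from 785, 747 and 726 counts to 3990, 3172 and 3297 (log2 FC 1.98, standard error 0.12, edgeR quasi-likelihood adjusted p = 0.00241), and was called in all 6 fits with a library left out. The Wnt co-receptor gene Lrp5 fell by 1.64 on the log2 scale (adjusted p = 0.0174), and Lrpap1, the chaperone that escorts Lrp1 and its relatives through the endoplasmic reticulum, by 1.19 (from 1592, 1792 and 1078 to 735, 1004 and 554 counts, adjusted p = 0.0228). Lrp5 and Lrpap1 were each called in 2 of the 6 fits with a library left out, with adjusted p-values of up to 0.0826 and 0.103, both without LPS/siponimod replicate 1. With the replicate block, Lrp8 (log2 FC 1.52, adjusted p = 0.0271) and Lrp11 (0.66, adjusted p = 0.0458) were added as higher.

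Genes around the ligands and cargo of these receptors went both ways. Of 9 tested genes of haemoglobin and haem handling, the steps after Cd163, 1 was called (median log2 FC -0.29). It was the lysosomal haem transporter gene Slc48a1, which fell by 1.13 (29994, 21968 and 23861 against 11898, 16581 and 12186 counts, edgeR quasi-likelihood adjusted p = 0.0159). The haem oxygenase gene Hmox1 (log2 FC 0.33, adjusted p = 0.451) and haptoglobin, Hp (-0.29, adjusted p = 0.652), were not called. Slc48a1 was called in 3 of the 6 fits with a library left out, with an adjusted p of up to 0.0755 without LPS/siponimod replicate 1, and with the replicate block the biliverdin reductase gene Blvra was called lower as well (log2 FC -0.61, adjusted p = 0.0194). Of the lysosomal membrane genes, Lamp1 (log2 FC 0.73, adjusted p = 0.141), Lamp2 (0.43, adjusted p = 0.165) and Cd63 (0.23, adjusted p = 0.462) were not called, and under the block Lamp1 was called higher (0.72, adjusted p = 0.0417).

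For lipid handling after uptake, 5 of 17 genes were called, 2 higher and 3 lower (median log2 FC -0.05). The fatty acid chaperone gene Fabp4 rose from 712, 503 and 462 to 13220, 4055 and 5196 counts (log2 FC 3.49, standard error 0.49, edgeR quasi-likelihood adjusted p = 0.00817), and Npc1, which exports cholesterol from lysosomes, had a log2 FC of 1.41 (adjusted p = 0.00733). Both held in all 6 fits with a library left out. Nr1h3, the oxysterol receptor LXR alpha (-1.80, adjusted p = 0.0155), the cholesteryl ester hydrolase gene Nceh1 (-1.04, adjusted p = 0.0324) and lipoprotein lipase, Lpl (-1.37, adjusted p = 0.0445), fell. Without LPS/siponimod replicate 1 the adjusted p was 0.0729 for Nr1h3 and 0.123 for Nceh1, and without LPS replicate 2 that of Lpl was 0.129. Of the 6 fits with a library left out, Nr1h3 was called in 4, Nceh1 in 2 and Lpl in 1. The lipid droplet gene Plin2 was called higher under the replicate block (0.66, adjusted p = 0.0248).

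Of 11 tested genes for receptor shedding, adaptors and turnover, 2 were called higher and 2 lower (median log2 FC -0.46). Furin, which cleaves the Lrp1 precursor, rose from 4172, 5497 and 6893 to 16156, 15667 and 15859 counts (log2 FC 1.30, standard error 0.21, edgeR quasi-likelihood adjusted p = 0.0106, and 0.0532 without LPS replicate 2). Rhbdf2, a partner of the sheddase Adam17, had a log2 FC of 1.10 (adjusted p = 0.0466) and Adam17 itself of -0.58 (adjusted p = 0.0728). The endocytic adaptor gene Dab2 (-0.90, adjusted p = 0.0278) and Adam9 (-1.52, adjusted p = 0.0376) fell. The highest adjusted p with a library left out was 0.147 for Rhbdf2, 0.117 for Dab2 and 0.148 for Adam9, each without LPS/siponimod replicate 1. Furin was called in 5 of these 6 fits, Dab2 in 3, Adam9 in 2 and Rhbdf2 in 1.

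Among 10 genes that act with Cd36, 1 was called higher and 3 lower (median log2 FC -0.85). The tetraspanin gene Cd9 rose (log2 FC 4.15, edgeR quasi-likelihood adjusted p = 0.00326), whereas Tlr6 (-1.31, adjusted p = 0.00989), the kinase gene Lyn (-0.86, adjusted p = 0.0369) and Tlr2 (-1.10, adjusted p = 0.0374) fell. Tlr4 (0.77, adjusted p = 0.125) and the ligand thrombospondin-1, Thbs1 (-0.36, adjusted p = 0.808), were not called. Without LPS/siponimod replicate 1 the adjusted p was 0.0533 for Tlr6 and 0.136 for Lyn, and without LPS/siponimod replicate 3 it was 0.108 for Tlr2. Cd9 was called in all 6 fits with a library left out, Tlr6 in 5, Lyn in 2 and Tlr2 in 1. With the replicate block, Syk (-1.02, adjusted p = 0.0131), Fyn (-0.82, adjusted p = 0.0301) and Cd81 (-1.69, adjusted p = 0.0119) were called lower too, giving 6 lower and 1 higher.

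Of 15 tested regulators known to act on macrophage receptor genes, 6 were called higher and 3 lower, although the median log2 FC was -0.91, since 9 of the 15 had a negative value. Klf4 (log2 FC 5.68, edgeR quasi-likelihood adjusted p = 0.00396), Irf4 (2.97, adjusted p = 0.0136) and Stat6 (0.76, adjusted p = 0.0157) rose. Stat6 and Irf4 act in the interleukin-4 response, and the interleukin-4 receptor gene Il4r lay lower in every LPS/siponimod library without being called (log2 FC -1.10, adjusted p = 0.0589). Stat3 (-0.91, adjusted p = 0.00834), the interleukin-10 receptor gene Il10ra (-1.73, adjusted p = 0.0107) and Maf (-1.58, adjusted p = 0.0278), a factor of resident macrophages, fell. Il10 (-1.58, adjusted p = 0.12) had a lower mean and was not called. Klf4 and Stat3 were called in all 6 fits with a library left out. The adjusted p of Irf4 and Stat6 reached 0.0639 and 0.0734 without LPS replicate 2, and that of Il10ra and Maf 0.0577 and 0.106 without LPS/siponimod replicate 1. Irf4, Stat6 and Il10ra were each called in 4 of these fits and Maf in 2. With the replicate block Irf8 (-1.63, adjusted p = 0.0133) and Csf1r (-1.33, adjusted p = 0.0375) were called lower as well.

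**Figure D5:**
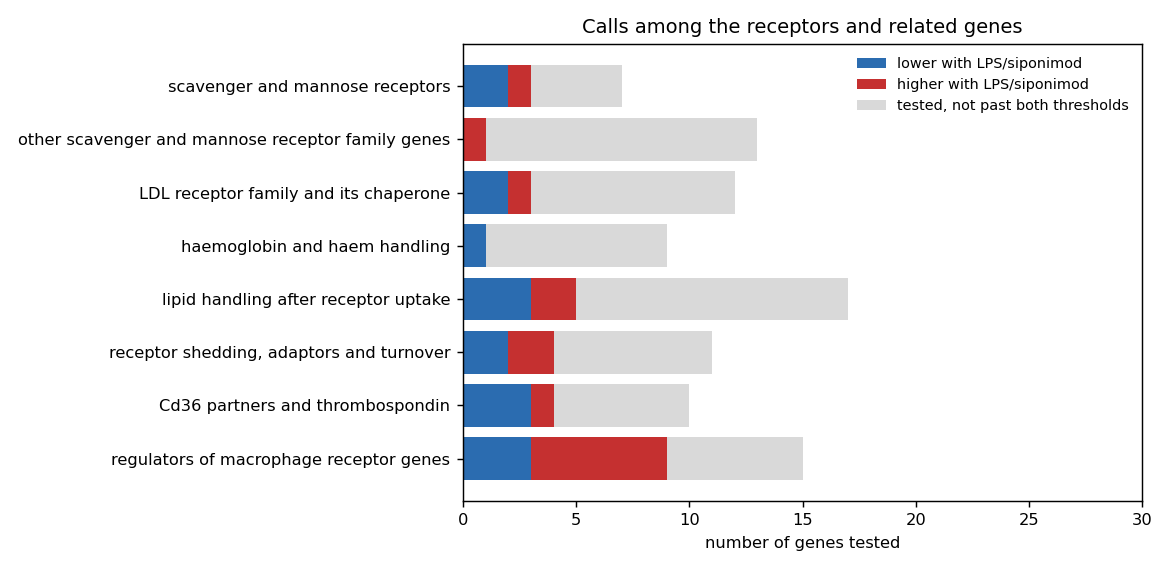
Number of tested genes called lower (blue), called higher (red) or not past both thresholds (grey) with LPS/siponimod in the receptor group and in 7 of the 8 lists of related genes, the lysosomal membrane list being left out. Of the 7 receptors 2 were called lower and 1 higher, and of the 15 regulators 3 and 6.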

How the data were processed

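Bulk polyA-selected RNA of 6 libraries was sequenced, 3 biological replicates per condition. The authors converted and demultiplexed single-end reads with bcl2fastq (version 2.20.0.422), trimmed them, mapped them to the rat genome mRatBN7.2 in the CLC Genomics Workbench and deposited the total read count per gene of each library, without normalization. How multi-mapping reads, strand and introns were handled is not given in the sources used here. A single unnamed row with 0 counts was dropped.

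The test was edgeR's quasi-likelihood F test (edgeR version 4.0.16 under R version 4.3.3), with 1 term for condition, after filterByExpr (minimum count 10, minimum total 15) and TMM scaling. CPM are scaled by TMM, and pair differences use log2 CPM with a prior count of 2. A standard error is the log2 FC over the square root of the F statistic, and intervals cover 95%. The floor of 3 counts covers counting error only, as PCR copies were not marked by molecular identifiers. Alternatives were RLE scaling, DESeq2 (version 1.42.0), limma-voom (version 3.58.1), no filter beyond 1 count, the replicate number as a block, and each library left out in turn. After centring on group means, same-numbered libraries correlated over genes at 0.42, 0.545 and 0.611 and others at between -0.534 and 0.0856. All 3 exceed 0.1, so that same-numbered libraries were taken as pairs in the pair differences and the replicate block. The main test, with its term for condition alone, did not use the pairs. This pairing comes from the data and not from a label.

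The procedure was tested on simulated data, in which the quasi-likelihood test missed all of the smaller fold changes and part of the larger ones, so that a gene that was not called is not shown to be unchanged. Members and lists were chosen with earlier results of these data known. Every member is named, and of each list up to 3 called genes per direction with the smallest p, direct partners of a member, and the 3 genes that follow Mrc1 and Olr1 most closely. Cd68, Lamp2, Cd63, Il4r, the sum without Stab1 and Mrc1, the genes called under the replicate block and marker genes outside this rule were chosen after their values were seen. Fabp5, Ftl1, Slc40a1, Lyve1, Cldn5 and Cd163l1 were not analysed here, and the results of some other list genes are not reported here.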

Additional observations from a re-analysis of the deposited data

How the results depend on the processing

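Of the 7 receptors tested, Mrc1, Stab1 and Olr1 were called under RLE scaling, DESeq2, limma-voom, no filter and the replicate block. Mrc1 remained called in every fit that left out a library, where its log2 FC ranged from -2.68 to -2.29, while Stab1 (-3.87 to -2.81) and Olr1 (3.48 to 5.27) lost the call in 2 and 3 of these fits. Msr1, Scarb1 and Scarb2 kept their direction and were not called under any of the 11 alternatives. Lrp1 changed sign with limma-voom (log2 FC 0.00108), without LPS replicate 1 (0.14), without LPS replicate 2 (0.13) and without LPS/siponimod replicate 1 (0.20), and with 1 library left out it ranged from -0.26 to 0.20, with adjusted p-values of at least 0.494. With the replicate block, the calls of the 7 receptors did not change, and beyond the genes named beside each list it changed no other call discussed here. A fit with no filter gave Marco an adjusted p of 0.0972 and Cd163 of 0.285.

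With each library left out in turn, the number of genes called over all genes ranged from 651 (without LPS replicate 2) to 3713 (without LPS replicate 3), against 3036 with all libraries. It was 783 without LPS/siponimod replicate 1, 1035 without LPS/siponimod replicate 3 and 1743 without LPS replicate 1. Receptors called lower ranged from 1 to 2 and called higher from 0 to 1. Calls in the lists ranged from 1 to 4 for other scavenger receptors, 1 to 6 for the LDL receptor family, 0 to 2 for haem handling, 2 to 5 for lipid handling, 1 to 6 for shedding and adaptors, 1 to 6 for genes acting with Cd36, 0 to 1 for the lysosomal membrane and 2 to 12 for regulators. The cause was not tested, and these fits have fewer samples.

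DESeq2 called 3 other scavenger receptors, 2 genes of haem handling, 7 that act with Cd36 and 14 regulators. With the replicate block these numbers were 3 other scavenger receptors, 5 genes of the LDL receptor family, 2 of haem handling, 7 that act with Cd36 and 2 of the lysosomal membrane. Over all genes the block gave 4074 calls and DESeq2 3898. Depth limits Marco and Cd163, for which no more than 3 reads were counted in any library.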
